A study of Mus musculus with 12 samples.

Results

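Microglia sorted from mouse brain were read here for RNA of the other cells of the brain. Counts of 32 marker genes, of 55401 genes in the files, were taken from each of 12 libraries by gene symbol: 8 of neurons, 8 of astrocytes, 8 of the oligodendrocyte lineage, 6 of endothelial cells and 2 of mural cells, the contractile cells on the vessel wall. They were taken as textbook markers of each class. Counts from bulk RNA do not show which cells held a transcript, and fewer cells of a type and less RNA per cell cannot be told apart.

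Each of the 4 groups had 3 libraries. WT mice carried Cx3cr1 wt/wt and Hdac3 loxp/loxp. HDAC3-miKO (miKO) mice carried Cx3cr1 CreER/wt and Hdac3 loxp/loxp, so that tamoxifen removes the histone deacetylase HDAC3 from cells with an active Cx3cr1 promoter and 1 Cx3cr1 allele is replaced. All mice were male and carried the floxed Hdac3 alleles, tamoxifen was injected on 5 days at 6 to 8 weeks of age, and surgery followed at least 1 month later. Transient focal cerebral ischemia (tFCI) was 60 min of middle cerebral artery occlusion, and Sham mice had the anesthesia and artery exposure alone. Cells were collected on day 3, and each library pooled microglia of 3 to 4 hemispheres. Cells gated as CD11b+ CD45int were kept by flow cytometry. The labels put replicate 1 of every group in batch 1 and replicates 2 and 3 in batch 2, so batch 1 holds 1 library of each group.

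Each library held between 7697864 and 9452222 counts on genes. The targeted gene, Hdac3, measured 35, 44 and 46.4 CPM (counts relative to library size, scaled by TMM factors) in WT-Sham, 25.8, 25 and 20.9 in miKO-Sham, 54, 52.9 and 43.9 in WT-tFCI and 36, 27.1 and 28.9 in miKO-tFCI, lower in every miKO library than in every WT library of the same surgery. Summed over 15 microglial markers, the level was 47410 to 50240 CPM in WT-Sham, 48930 to 49870 in miKO-Sham, 36760 to 41120 in WT-tFCI and 21470 to 33730 in miKO-tFCI, with none of the 15 at 0 anywhere. A miKO-Sham library sat apart from its batch label. Replicates 1 and 2 of miKO-Sham, labelled batch 1 and batch 2, differed less from each other (chi-square 2.82 per degree of freedom over genes) than any other pair of replicates (3.65 to 76.6), and mitochondrial RNA was 1.98% of counts in replicate 2, beside 1.87% in replicate 1 and 0.559% in replicate 3. The chi-square of this pair is above counting noise, and both were kept as the separate samples that the labels give. It does not show that their RNA came from separate pools, which was not tested. By the correlation of log2 CPM this pair (0.976) came after replicates 2 and 3 of WT-Sham (0.981) and of WT-tFCI (0.98). Calls that rest on miKO-Sham are given without replicate 2 where that changed them.

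The markers stand for distinct jobs in the brain. Neurons fire and release transmitter, astrocytes clear transmitter and potassium and wall off injured tissue, oligodendrocytes wrap axons in myelin, and endothelial and mural cells build the vessels and the blood-brain barrier. After stroke, astrocytes around the infarct become reactive, vessels leak and remodel, and microglia take up myelin and dying cells. A sort for CD11b and CD45 selects myeloid cells and is meant to leave the other cells of the brain behind.

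Before ischemia, 4 genes made up most of the signal. In WT-Sham the 8 astrocyte genes summed to 190.5 ± 7.56 CPM (SD, n = 3), of which Slc1a3 alone held 179.7 ± 4.87. The 8 genes of the oligodendrocyte lineage summed to 202 ± 16.3 CPM, of which Cnp, Mag and Mbp together held 199.6 ± 15.8. Of the other members of these classes, Gfap, Aqp4, Mog, Olig1, Olig2 and Pdgfra were each below 1 CPM in all 3 WT-Sham libraries. Aldoc was at 1.79 to 4.81 CPM there and Slc1a2 at 0.896 to 5.65. Endothelial genes summed to 9.09 ± 2.27 CPM, mostly Kdr, while mural and neuron genes summed to 0.65 ± 0.468 and 2.36 ± 0.479 CPM. Slc1a3, Cnp, Mag and Mbp were thus high beside the other members of their classes, which reached 5.65 CPM at most in WT-Sham. Outside the members, the astrocyte gene Glul, read below, was high in WT-Sham too.

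With ischemia the sum of the low genes rose in each glial and vessel class. Leaving aside Slc1a3 and Aldoc, which were past the count minimum in every WT-Sham library, the other 6 astrocyte genes summed to 7.67 ± 1.27 CPM in WT-Sham and 13.9 ± 2.73 in miKO-Sham. After tFCI they ran from 52.9 to 186 CPM in WT and from 155 to 488 in miKO. The 5 oligodendrocyte genes other than Cnp, Mag and Mbp summed to 2.003 ± 0.889 CPM in WT-Sham and 5.32 ± 2.86 in miKO-Sham. With tFCI this sum was 8.285 to 34.5 CPM in WT and 34.9 to 63.1 in miKO. Of these 5, Mog and Olig2 overlapped between Sham and tFCI in both genotypes. The 5 endothelial genes other than Kdr went from 2.03 ± 1.57 to a range of 30.3 to 122 CPM in WT, and from 6.25 ± 3.06 to 59.6 to 204 in miKO. Mural genes summed to 20.7, 4.96 and 5.36 CPM in WT-tFCI and 34.9, 24 and 24.4 in miKO-tFCI, against at most 1.01 in WT-Sham. Neuron genes summed to 1.95 to 2.885 CPM in WT-Sham and 3.78 to 11.37 in WT-tFCI, without overlap. In miKO they ran from 11.4 to 16.1 CPM in Sham and from 9.145 to 14.3 after tFCI. Rbfox3 alone held 11.4, 14.8 and 9.09 CPM in the 3 miKO-Sham libraries. This split of the classes was made after the values were seen and carries no test.

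**Figure D1:**
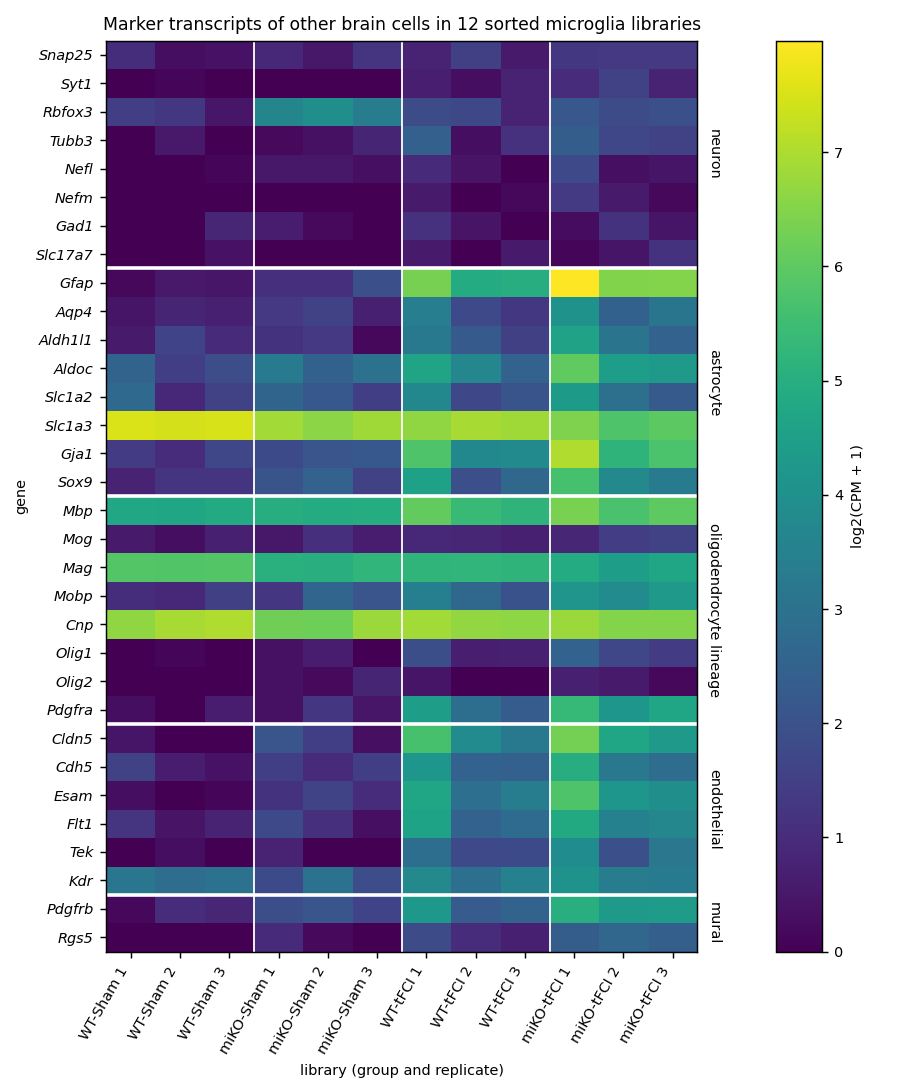
Heat map of the 32 marker genes (rows, grouped by cell class) in the 12 libraries (columns, by group and replicate), coloured by log2(CPM + 1). Slc1a3, Cnp, Mag and Mbp are bright in every library, and most other glial and vessel genes brighten after tFCI, many of them most in replicate 1 of miKO-tFCI, where Gfap reaches 251 CPM.

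**Figure D2:**
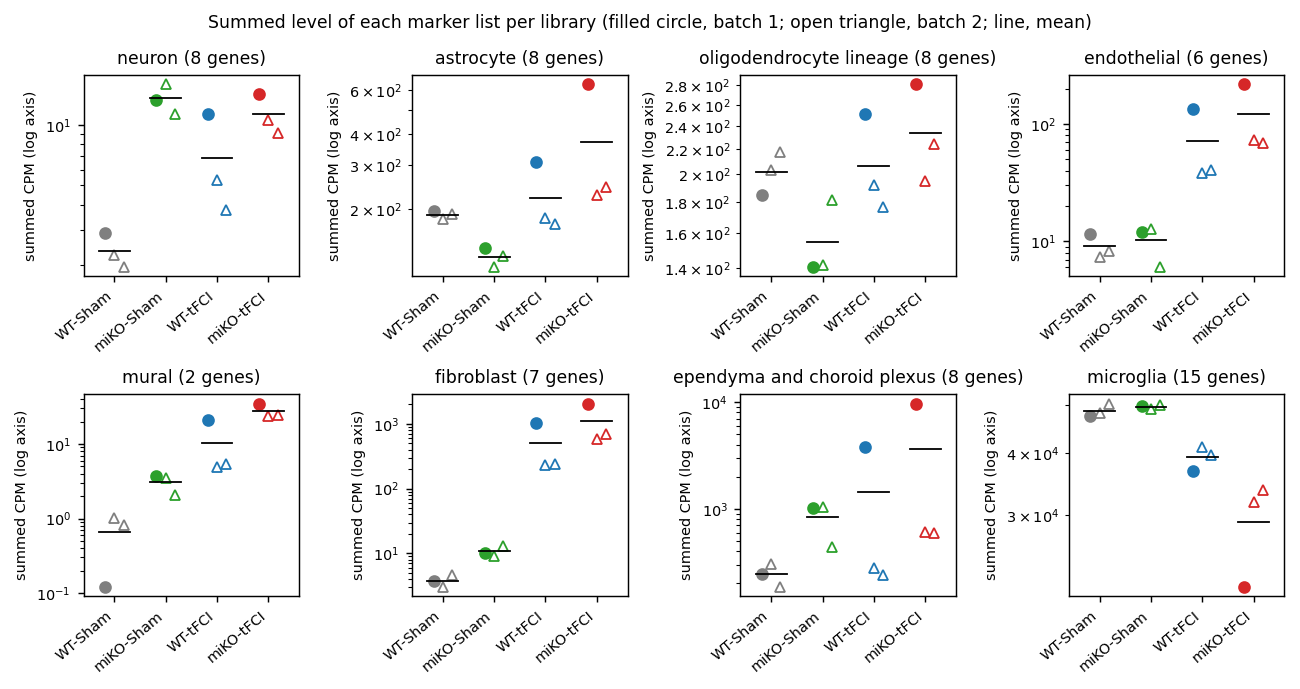
Summed CPM (log axis, each panel with its own range) of each marker list in the 12 libraries by group, with filled circles for batch 1, open triangles for batch 2 and a line at the mean of 3. The batch 1 library is the highest of its tFCI group for each of the 5 member classes, and the microglial sum of miKO-tFCI replicate 1 is the lowest, at 21470 CPM.

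Each surgery comparison was tested with edgeR on all genes with enough counts, with group and batch as terms. Calls needed an absolute log2 fold change above 0.58 and a p that, adjusted over 16451 genes by the Benjamini-Hochberg method, was under 0.05, and edgeR adjusted p below means this value. Of the 32 members, 25 had enough counts to test. Just 6 of those were past the minimum of 1.22 CPM in all 3 WT-Sham libraries and 5 were past it in no Sham library, so a member near 0 in Sham was tested because it was higher elsewhere, and the counts below describe the list and carry no support. In WT-tFCI vs. WT-Sham, 17 members were called higher, beside 20.9% of all genes tested, and 2 lower (Slc1a3 and Mag), beside 11.7%. Their median log2 fold change was 2.74, against 0.02 over all genes tested. In miKO-tFCI vs. miKO-Sham, 20 members were called higher, beside 21.9% of all genes, and 2 lower (Slc1a3 and Rbfox3), beside 13.9%. The median there was 2.63, against 0.03 over all genes. With the libraries of batch 2 alone, a setting chosen after the data were seen, 15 members were called in WT and 18 in miKO, all of them also called with both batches. The 4 lost in WT were Tubb3, Aqp4, Mbp and Olig1, and the 4 lost in miKO were Tubb3, Slc1a2, Olig1 and Kdr. Without miKO-Sham replicate 2, 21 of the 22 miKO calls remained, and Tubb3 was lost.

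**Figure D3:**
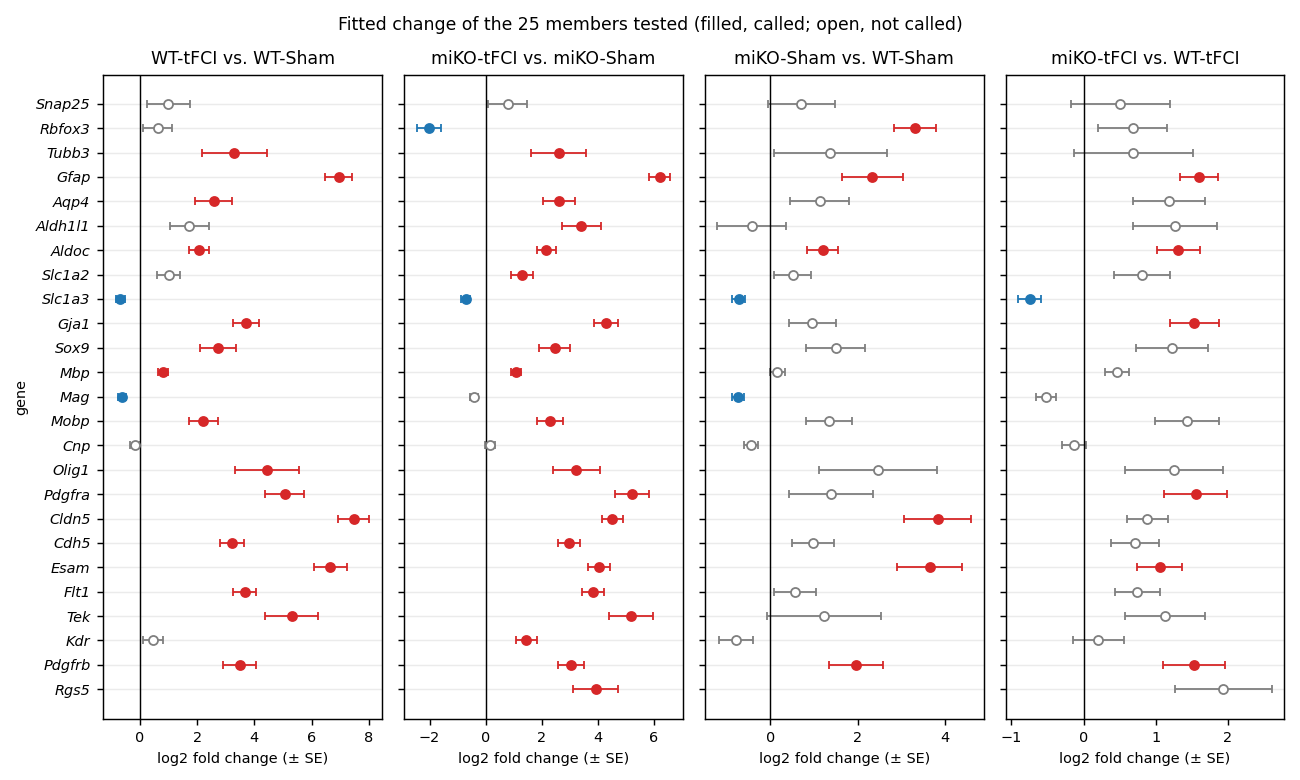
Fitted log2 fold change ± SE of the 25 members tested (rows) in the 4 comparisons (panels, each with its own axis range). Filled red points were called higher, filled blue points called lower and open grey points not called, and Rgs5 is left out where WT-Sham held no count. Most points lie right of 0 in both tFCI panels, with Slc1a3 on the left in all 4.

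Promoter sequence is shown for 4 members, a pair that fell with tFCI in WT (Slc1a3 and Mag) and a pair that rose (Gfap and Cldn5). Each run covers 250 bases before and 50 after a RefSeq transcript start on GRCm38.p6, read 5′ to 3′ on the gene's strand, and where RefSeq lists several starts the nearest to the gene's 5′ end in GENCODE was taken. Capitals mark GAGGAA or its reverse complement TTCCTC, the core letters bound by PU.1, the lineage factor of microglia.
Slc1a3: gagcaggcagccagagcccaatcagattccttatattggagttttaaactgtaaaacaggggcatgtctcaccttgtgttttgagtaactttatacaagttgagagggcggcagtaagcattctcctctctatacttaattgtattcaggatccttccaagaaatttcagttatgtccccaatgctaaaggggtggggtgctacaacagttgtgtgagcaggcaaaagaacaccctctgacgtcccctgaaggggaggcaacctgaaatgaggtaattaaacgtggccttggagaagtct
Mag: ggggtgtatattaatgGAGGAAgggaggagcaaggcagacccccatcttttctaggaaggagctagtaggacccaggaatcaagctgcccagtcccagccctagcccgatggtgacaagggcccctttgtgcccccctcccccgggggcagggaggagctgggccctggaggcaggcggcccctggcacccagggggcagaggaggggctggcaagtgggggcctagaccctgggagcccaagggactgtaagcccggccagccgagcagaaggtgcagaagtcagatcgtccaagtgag
Gfap: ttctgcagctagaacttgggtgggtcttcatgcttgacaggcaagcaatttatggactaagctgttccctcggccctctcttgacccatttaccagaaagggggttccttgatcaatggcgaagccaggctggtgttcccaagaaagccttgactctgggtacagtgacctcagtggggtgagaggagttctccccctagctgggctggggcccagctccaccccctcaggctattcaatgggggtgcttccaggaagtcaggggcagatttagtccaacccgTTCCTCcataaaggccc
Cldn5: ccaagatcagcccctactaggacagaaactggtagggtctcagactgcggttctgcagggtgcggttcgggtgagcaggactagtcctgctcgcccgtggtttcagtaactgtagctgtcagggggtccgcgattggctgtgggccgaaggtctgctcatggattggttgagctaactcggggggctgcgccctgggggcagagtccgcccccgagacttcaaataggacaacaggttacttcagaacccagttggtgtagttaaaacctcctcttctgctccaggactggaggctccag
The Slc1a3 window lies at chr15:8710758-8711057 (minus strand), the Mag window at chr7:30914814-30915113 (minus), the Gfap window at chr11:102897151-102897450 (minus) and the Cldn5 window at chr16:18776597-18776896 (plus). Mag and Gfap held 1 match each, and no match was found in the Slc1a3 or Cldn5 window. Of 32851 windows in the table, 28.3% held the letters on either strand, and of the 22 members with a window, 9 did. A match is a string of letters and not a site of binding.

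Of the 8 astrocyte genes, 1 was high in Sham and fell with tFCI, and the other 7 were low in Sham. In WT, 5 of 8 tested were called higher and 1 lower (median log2 fold change 2.31), and in miKO, 7 of 8 tested were called higher and 1 lower (median log2 fold change 2.55). Slc1a3 encodes the glutamate transporter GLAST. Slc1a3 was at 184, 174 and 181 CPM in the WT-Sham libraries (replicates 1 to 3) and at 117, 96.3 and 112 in miKO-Sham. After tFCI, Slc1a3 was at 99.9, 120.0 and 114 CPM for WT and at 86.1, 53.4 and 61.7 for miKO. The WT-Sham libraries were the highest of all, and no library of any other group reached them. The fitted Slc1a3 log2 fold change with tFCI was -0.69 (SE 0.15, edgeR adjusted p = 0.00292) in WT and -0.70 (SE 0.16, edgeR adjusted p = 0.00238) in miKO. By batch, the Slc1a3 log2 difference with tFCI was -0.88 in batch 1 and -0.60 in batch 2 for WT, and -0.44 in batch 1 and -0.85 in batch 2 for miKO. The WT call was lost without WT-tFCI replicate 1 (log2 fold change -0.53) and the miKO call without miKO-tFCI replicate 2 (-0.58), both missing the fold limit.

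Gfap, the intermediate filament that marks reactive astrocytes, changed most in this class. Gfap was at 0.12, 0.448 and 0.41 CPM in the WT-Sham libraries (replicates 1 to 3) and at 1.11, 1.11 and 2.82 in miKO-Sham. After tFCI, Gfap was at 79.3, 29.1 and 30.6 CPM for WT and at 251, 88.1 and 88.5 for miKO. All 6 tFCI libraries stood above all 6 Sham libraries, and replicate 1 was the highest of its tFCI group in both genotypes. The fitted Gfap log2 fold change with tFCI was 6.95 (SE 0.47, edgeR adjusted p = 5.71e-08) in WT and 6.22 (SE 0.38, edgeR adjusted p = 3.53e-08) in miKO. By batch, the Gfap log2 difference with tFCI was 7.79 in batch 1 and 5.49 in batch 2 for WT, and 7.54 in batch 1 and 5.45 in batch 2 for miKO. Gja1 encodes connexin 43, the main gap junction protein of astrocytes. Gja1 was at 1.68, 1.01 and 2.26 CPM in the WT-Sham libraries (replicates 1 to 3) and at 2.5, 3.33 and 3.59 in miKO-Sham. After tFCI, Gja1 was at 54.2, 12.3 and 12.9 CPM for WT and at 129.6, 35.3 and 51.5 for miKO. Sham and tFCI libraries did not overlap in either genotype. The fitted Gja1 log2 fold change with tFCI was 3.72 (SE 0.45, edgeR adjusted p = 1.89e-05) in WT and 4.30 (SE 0.42, edgeR adjusted p = 2.88e-06) in miKO. By batch, the Gja1 log2 difference with tFCI was 4.82 in batch 1 and 2.87 in batch 2 for WT, and 5.57 in batch 1 and 3.54 in batch 2 for miKO. Aldoc, a glycolytic enzyme enriched in astrocytes, had counts in every library. Aldoc was at 4.81, 1.79 and 2.67 CPM in the WT-Sham libraries (replicates 1 to 3) and at 8.61, 4.58 and 6.92 in miKO-Sham. After tFCI, Aldoc was at 24.1, 11.9 and 4.63 CPM for WT and at 63.8, 20.9 and 18.9 for miKO. In WT the lowest tFCI library lay just under the highest Sham library, while the miKO groups were apart. The fitted Aldoc log2 fold change with tFCI was 2.05 (SE 0.35, edgeR adjusted p = 0.000352) in WT and 2.17 (SE 0.32, edgeR adjusted p = 0.000108) in miKO. By batch, the Aldoc log2 difference with tFCI was 2.27 in batch 1 and 1.66 in batch 2 for WT, and 2.86 in batch 1 and 1.78 in batch 2 for miKO.

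Sox9, a transcription factor of the astrocyte lineage, was low in Sham. Sox9 was at 0.721, 1.34 and 1.33 CPM in the WT-Sham libraries (replicates 1 to 3) and at 3.19, 4.72 and 1.92 in miKO-Sham. After tFCI, Sox9 was at 22.5, 2.88 and 5.48 CPM for WT and at 49.7, 12.6 and 8.78 for miKO. Replicate 1 stood far above replicates 2 and 3 after tFCI in both genotypes, and even the lowest tFCI library was above the Sham libraries of its genotype. The fitted Sox9 log2 fold change with tFCI was 2.74 (SE 0.63, edgeR adjusted p = 0.00333) in WT and 2.47 (SE 0.56, edgeR adjusted p = 0.00254) in miKO. By batch, the Sox9 log2 difference with tFCI was 4.56 in batch 1 and 1.42 in batch 2 for WT, and 3.86 in batch 1 and 1.72 in batch 2 for miKO. Aqp4, the water channel of astrocyte endfeet, was scarcer. Aqp4 was at 0.361, 0.784 and 0.616 CPM in the WT-Sham libraries (replicates 1 to 3) and at 1.53, 1.94 and 0.64 in miKO-Sham. After tFCI, Aqp4 was at 9.7, 2.42 and 1.46 CPM for WT and at 15.8, 4.52 and 7.66 for miKO. The groups did not overlap with surgery, although WT-tFCI replicate 3 was below miKO-Sham replicates 1 and 2. The fitted Aqp4 log2 fold change with tFCI was 2.57 (SE 0.63, edgeR adjusted p = 0.00506) in WT and 2.63 (SE 0.57, edgeR adjusted p = 0.00186) in miKO. By batch, the Aqp4 log2 difference with tFCI was 4.05 in batch 1 and 1.19 in batch 2 for WT, and 3.18 in batch 1 and 2.15 in batch 2 for miKO. With batch 2 alone the WT call was lost (log2 fold change 1.47, edgeR adjusted p = 0.106).

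Aldh1l1, a folate enzyme used as a general astrocyte marker, shares 604 exon bases with Gm45901 and Gm15756. Aldh1l1 was at 0.481, 2.02 and 0.923 CPM in the WT-Sham libraries (replicates 1 to 3) and at 1.25, 1.53 and 0.128 in miKO-Sham. After tFCI, Aldh1l1 was at 8.26, 3.81 and 1.83 CPM for WT and at 23, 7.42 and 4.7 for miKO. WT-tFCI and WT-Sham overlapped, and the miKO groups did not. The fitted Aldh1l1 log2 fold change with tFCI was 1.73 (SE 0.68, edgeR adjusted p = 0.0568) in WT and 3.42 (SE 0.70, edgeR adjusted p = 0.00128) in miKO. By batch, the Aldh1l1 log2 difference with tFCI was 3.56 in batch 1 and 0.84 in batch 2 for WT, and 3.97 in batch 1 and 2.93 in batch 2 for miKO. Slc1a2 encodes the glutamate transporter GLT-1 and shares 189 exon bases with Gm13872 on the other strand. Slc1a2 was at 5.65, 0.896 and 1.95 CPM in the WT-Sham libraries (replicates 1 to 3) and at 5.0, 3.61 and 1.79 in miKO-Sham. After tFCI, Slc1a2 was at 12.3, 2.31 and 3.17 CPM for WT and at 19.4, 6.66 and 3.83 for miKO. Both surgery comparisons overlapped, and replicate 1 was the highest library of its group in all 4 groups. The fitted Slc1a2 log2 fold change with tFCI was 1.01 (SE 0.41, edgeR adjusted p = 0.0644) in WT and 1.31 (SE 0.40, edgeR adjusted p = 0.0172) in miKO. By batch, the Slc1a2 log2 difference with tFCI was 1.09 in batch 1 and 0.90 in batch 2 for WT, and 1.91 in batch 1 and 0.92 in batch 2 for miKO. The miKO call for Slc1a2 was lost with batch 2 alone (log2 fold change 0.94, edgeR adjusted p = 0.199), and without miKO-Sham replicate 1 (0.91), miKO-tFCI replicate 1 (1.20) or miKO-tFCI replicate 2 (1.12).

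In the oligodendrocyte lineage, genes differed in level and in direction. In WT, 4 of 6 tested were called higher and 1 lower (median log2 fold change 1.51), and in miKO, 4 of 6 tested were called higher and 0 lower (median log2 fold change 1.70). Cnp, a myelin phosphodiesterase, was the member with the highest level per length in Sham. Cnp was at 100.2, 122 and 129 CPM in the WT-Sham libraries (replicates 1 to 3) and at 75.5, 73.2 and 109.8 in miKO-Sham. After tFCI, Cnp was at 116, 101 and 97 CPM for WT and at 109, 88.3 and 89.1 for miKO. The 4 groups overlapped widely. The fitted Cnp log2 fold change with tFCI was -0.17 (SE 0.17, edgeR adjusted p = 0.468) in WT and 0.15 (SE 0.17, edgeR adjusted p = 0.512) in miKO. Cnp shares 154 exon bases with Dnajc7 on the other strand, and the library kit does not mark strand. Mag encodes the myelin-associated glycoprotein of the innermost myelin layer. Mag was at 56.1, 54.6 and 56.6 CPM in the WT-Sham libraries (replicates 1 to 3) and at 32.2, 30.8 and 37.3 in miKO-Sham. After tFCI, Mag was at 35.9, 36.8 and 35.6 CPM for WT and at 28.7, 21.2 and 25.6 for miKO. All 3 WT-Sham libraries stood above every other library, and those of miKO-tFCI were the lowest. The fitted Mag log2 fold change with tFCI was -0.63 (SE 0.14, edgeR adjusted p = 0.00249) in WT and -0.41 (SE 0.14, edgeR adjusted p = 0.0306) in miKO. By batch, the Mag log2 difference with tFCI was -0.64 in batch 1 and -0.62 in batch 2 for WT, and -0.17 in batch 1 and -0.53 in batch 2 for miKO. In miKO the Mag change passed the p threshold and missed the fold limit. Mbp encodes myelin basic protein, and the same locus also makes golli transcripts in immune cells, which gene counts do not split from myelin transcripts. Mbp was at 26.6, 24.8 and 28.3 CPM in the WT-Sham libraries (replicates 1 to 3) and at 30.1, 29.3 and 29.6 in miKO-Sham. After tFCI, Mbp was at 65.6, 40.9 and 35.7 CPM for WT and at 81.2, 50.3 and 62.5 for miKO. Every tFCI library was above every Sham library. The fitted Mbp log2 fold change with tFCI was 0.79 (SE 0.18, edgeR adjusted p = 0.00258) in WT and 1.10 (SE 0.18, edgeR adjusted p = 0.000193) in miKO. By batch, the Mbp log2 difference with tFCI was 1.30 in batch 1 and 0.52 in batch 2 for WT, and 1.42 in batch 1 and 0.92 in batch 2 for miKO. The WT call was lost with batch 2 alone, at a log2 fold change of 0.53.

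Mobp, a myelin protein of mature oligodendrocytes, was low in Sham. Mobp was at 1.08, 0.896 and 1.85 CPM in the WT-Sham libraries (replicates 1 to 3) and at 1.39, 5.13 and 3.33 in miKO-Sham. After tFCI, Mobp was at 9.81, 5.42 and 3.05 CPM for WT and at 16.9, 13.3 and 18.9 for miKO. The surgery groups were apart in both genotypes, and miKO-tFCI was above WT-tFCI in every library. The fitted Mobp log2 fold change with tFCI was 2.22 (SE 0.51, edgeR adjusted p = 0.00345) in WT and 2.31 (SE 0.46, edgeR adjusted p = 0.00115) in miKO. By batch, the Mobp log2 difference with tFCI was 2.93 in batch 1 and 1.49 in batch 2 for WT, and 3.40 in batch 1 and 1.88 in batch 2 for miKO. Pdgfra, the receptor of oligodendrocyte precursors, is also made by fibroblasts. Pdgfra was at 0.24, 0 and 0.513 CPM in the WT-Sham libraries (replicates 1 to 3) and at 0.278, 1.39 and 0.384 in miKO-Sham. After tFCI, Pdgfra was at 20.7, 6.35 and 4.02 CPM for WT and at 40, 17.1 and 24.7 for miKO. Pdgfra reached 1.39 CPM at most in Sham, and the lowest tFCI library held 4.02 CPM. The fitted Pdgfra log2 fold change with tFCI was 5.05 (SE 0.69, edgeR adjusted p = 5.36e-05) in WT and 5.22 (SE 0.60, edgeR adjusted p = 1.13e-05) in miKO. By batch, the Pdgfra log2 difference with tFCI was 5.45 in batch 1 and 3.64 in batch 2 for WT, and 6.28 in batch 1 and 4.37 in batch 2 for miKO. Olig1, a transcription factor of the whole lineage, had 4 counts at most in any Sham library and 5 to 46 after tFCI. Olig1 was at 0, 0.112 and 0 CPM in the WT-Sham libraries (replicates 1 to 3) and at 0.278, 0.555 and 0 in miKO-Sham. After tFCI, Olig1 was at 2.75, 0.577 and 0.609 CPM for WT and at 4.75, 2.26 and 1.61 for miKO. WT-Sham held 1 count in all, so the WT ratio of summed counts was 35.3 (95% interval 5.91 to 1440, 33 against 1 counts), an interval for counting error alone. The WT call was lost without WT-Sham replicate 1 (3.47). The miKO log2 fold change was 3.24 (SE 0.84, edgeR adjusted p = 0.00624), lost without miKO-Sham replicate 1 (2.69), and it was not called with batch 2 alone (edgeR adjusted p = 0.0574). Mog and Olig2 were too low to test, with 84 and 23 counts over the 12 libraries. Olig1, Mobp and Pdgfra share 157, 79 and 652 exon bases with other genes.

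The 6 endothelial members were close to absent in WT-Sham apart from Kdr. The 16 further endothelial genes read below summed to 157.5 to 167.9 CPM there, and Eng was a large part of that sum. Of those 16, 4, 7 and 6 were at 0 in WT-Sham replicates 1 to 3. The sum of the 6 members rose after tFCI. In WT, 5 of 6 tested were called higher and 0 lower (median log2 fold change 4.48), and in miKO, 6 of 6 tested were called higher and 0 lower (median log2 fold change 3.95). Cldn5 encodes claudin 5, the tight junction protein of the blood-brain barrier. Cldn5 was at 0.361, 0 and 0 CPM in the WT-Sham libraries (replicates 1 to 3) and at 3.33, 1.8 and 0.256 in miKO-Sham. After tFCI, Cldn5 was at 49.5, 13.4 and 8.29 CPM for WT and at 79, 24.9 and 18.9 for miKO. Surgery groups did not overlap, and replicate 1 was the highest in each tFCI group. WT-Sham held 3 counts, and the WT ratio of summed counts was 213 (95% interval 72.6 to 1040, 598 against 3 counts). In miKO the Cldn5 log2 fold change was 4.52 (SE 0.38, edgeR adjusted p = 6.3e-07). By batch, the Cldn5 log2 difference with tFCI was 6.37 in batch 1 and 5.49 in batch 2 for WT, and 4.47 in batch 1 and 4.45 in batch 2 for miKO. Esam, an adhesion molecule of endothelial junctions, followed the same order of groups. Esam was at 0.24, 0 and 0.103 CPM in the WT-Sham libraries (replicates 1 to 3) and at 1.25, 2.08 and 1.02 in miKO-Sham. After tFCI, Esam was at 24.9, 6.58 and 9.14 CPM for WT and at 53.4, 17.3 and 14.7 for miKO. Again the surgery groups were apart in both genotypes. For WT the Esam ratio of summed counts was 121 (95% interval 41.1 to 591, 340 against 3 counts), and in miKO the log2 fold change was 4.06 (SE 0.40, edgeR adjusted p = 2.86e-06). By batch, the Esam log2 difference with tFCI was 5.71 in batch 1 and 4.80 in batch 2 for WT, and 5.17 in batch 1 and 3.24 in batch 2 for miKO.

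Flt1, a VEGF receptor, was at most 2.36 CPM in Sham. Flt1 was at 1.32, 0.336 and 0.718 CPM in the WT-Sham libraries (replicates 1 to 3) and at 2.36, 1.11 and 0.256 in miKO-Sham. After tFCI, Flt1 was at 23.7, 4.73 and 5.97 CPM for WT and at 27.8, 10.4 and 11.9 for miKO. No Sham library reached the tFCI libraries. The fitted Flt1 log2 fold change with tFCI was 3.66 (SE 0.41, edgeR adjusted p = 7.74e-06) in WT and 3.85 (SE 0.39, edgeR adjusted p = 4e-06) in miKO. By batch, the Flt1 log2 difference with tFCI was 3.94 in batch 1 and 2.90 in batch 2 for WT, and 3.43 in batch 1 and 3.80 in batch 2 for miKO. Cdh5 encodes VE-cadherin of endothelial junctions. Cdh5 was at 1.92, 0.56 and 0.308 CPM in the WT-Sham libraries (replicates 1 to 3) and at 1.8, 0.971 and 1.79 in miKO-Sham. After tFCI, Cdh5 was at 17.1, 4.73 and 4.51 CPM for WT and at 30.2, 8.17 and 6.18 for miKO. Sham and tFCI were apart in both genotypes. The fitted Cdh5 log2 fold change with tFCI was 3.23 (SE 0.42, edgeR adjusted p = 3.46e-05) in WT and 2.97 (SE 0.40, edgeR adjusted p = 4.51e-05) in miKO. By batch, the Cdh5 log2 difference with tFCI was 3.0 in batch 1 and 2.88 in batch 2 for WT, and 3.90 in batch 1 and 2.23 in batch 2 for miKO. Tek encodes the angiopoietin receptor TIE2, which some macrophages also carry. Tek was at 0, 0.224 and 0 CPM in the WT-Sham libraries (replicates 1 to 3) and at 0.694, 0 and 0 in miKO-Sham. After tFCI, Tek was at 6.34, 2.42 and 2.44 CPM for WT and at 13.6, 2.89 and 7.91 for miKO. It was at 0 in 4 of 6 Sham libraries and above 2 CPM in all tFCI libraries. The WT ratio of summed Tek counts was 50.3 (95% interval 13.5 to 421, 94 against 2 counts), and the miKO log2 fold change was 5.20 (SE 0.79, edgeR adjusted p = 0.000126). Kdr, the main VEGF receptor, was the endothelial gene with at least 10 counts in every library. Kdr was at 7.81, 6.27 and 7.08 CPM in the WT-Sham libraries (replicates 1 to 3) and at 2.5, 6.8 and 2.69 in miKO-Sham. After tFCI, Kdr was at 12.6, 6.46 and 10.4 CPM for WT and at 15.8, 9.3 and 8.9 for miKO. WT-tFCI overlapped WT-Sham, and miKO-tFCI lay above miKO-Sham. The fitted Kdr log2 fold change with tFCI was 0.46 (SE 0.36, edgeR adjusted p = 0.341) in WT and 1.46 (SE 0.39, edgeR adjusted p = 0.00731) in miKO. By batch, the Kdr log2 difference with tFCI was 0.67 in batch 1 and 0.29 in batch 2 for WT, and 2.55 in batch 1 and 1.04 in batch 2 for miKO. Without miKO-Sham replicate 1 the miKO call was lost (log2 fold change 1.04).

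Both mural genes were scarce in Sham, and both were called higher with tFCI in WT and in miKO. Pdgfrb, the PDGF receptor of pericytes, is also made by fibroblasts. Pdgfrb was at 0.12, 1.01 and 0.821 CPM in the WT-Sham libraries (replicates 1 to 3) and at 2.78, 3.33 and 2.05 in miKO-Sham. After tFCI, Pdgfrb was at 18.1, 3.92 and 4.75 CPM for WT and at 30.8, 18.9 and 20 for miKO. The surgery groups did not overlap, and the 3 miKO-tFCI libraries were above the 3 WT-tFCI libraries. The fitted Pdgfrb log2 fold change with tFCI was 3.49 (SE 0.58, edgeR adjusted p = 0.000282) in WT and 3.05 (SE 0.48, edgeR adjusted p = 0.000166) in miKO. By batch, the Pdgfrb log2 difference with tFCI was 5.67 in batch 1 and 1.99 in batch 2 for WT, and 3.36 in batch 1 and 2.78 in batch 2 for miKO. Rgs5, a regulator of G protein signalling used as a pericyte marker, had no count in WT-Sham. Rgs5 was at 0, 0 and 0 CPM in the WT-Sham libraries (replicates 1 to 3) and at 0.972, 0.139 and 0 in miKO-Sham. After tFCI, Rgs5 was at 2.63, 1.04 and 0.609 CPM for WT and at 4.13, 5.15 and 4.33 for miKO. Against a floor of 3 counts over the group, Rgs5 was at least 12.8-fold higher in WT-tFCI. In miKO the log2 fold change was 3.93 (SE 0.80, edgeR adjusted p = 0.00173), and the batch differences were 1.85 in batch 1 and 4.04 in batch 2.

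Of the 8 neuron genes, 3 had enough counts to test. In WT, 1 of 3 tested were called higher and 0 lower (median log2 fold change 0.99), and in miKO, 1 of 3 tested were called higher and 1 lower (median log2 fold change 0.79). Rbfox3 encodes the neuronal nuclear antigen NeuN. Rbfox3 was at 1.8, 1.46 and 0.41 CPM in the WT-Sham libraries (replicates 1 to 3) and at 11.4, 14.8 and 9.09 in miKO-Sham. After tFCI, Rbfox3 was at 2.51, 2.31 and 0.731 CPM for WT and at 3.51, 2.51 and 2.84 for miKO. The 3 miKO-Sham libraries stood above all 9 others. The fitted Rbfox3 log2 fold change with tFCI was 0.62 (SE 0.51, edgeR adjusted p = 0.362) in WT and -2.02 (SE 0.44, edgeR adjusted p = 0.00215) in miKO. Tubb3, neuronal tubulin, was seen after tFCI. Tubb3 was at 0, 0.448 and 0 CPM in the WT-Sham libraries (replicates 1 to 3) and at 0.139, 0.278 and 0.768 in miKO-Sham. After tFCI, Tubb3 was at 4.43, 0.231 and 1.22 CPM for WT and at 4.13, 2.26 and 1.98 for miKO. WT groups overlapped, since WT-tFCI replicate 2 was below WT-Sham replicate 2. The fitted Tubb3 log2 fold change with tFCI was 3.30 (SE 1.13, edgeR adjusted p = 0.0316) in WT and 2.62 (SE 0.98, edgeR adjusted p = 0.043) in miKO. By batch, the Tubb3 log2 difference with tFCI was 4.28 in batch 1 and 1.03 in batch 2 for WT, and 3.53 in batch 1 and 1.71 in batch 2 for miKO. Neither Tubb3 call held with batch 2 alone (edgeR adjusted p = 0.304 in WT and 0.151 in miKO). Leaving out 1 library at a time, the WT call was lost without WT-Sham replicate 1 (2.32), WT-Sham replicate 3 (2.75), WT-tFCI replicate 1 (2.15) or WT-tFCI replicate 3 (3.30), and the miKO call without miKO-Sham replicate 1 (1.84), miKO-Sham replicate 2 (2.51), WT-tFCI replicate 3 (2.59), miKO-tFCI replicate 1 (2.51), miKO-tFCI replicate 2 (2.57) or miKO-tFCI replicate 3 (2.66). Snap25, a synaptic vesicle fusion protein, stayed below 2 CPM. Snap25 was at 1.08, 0.224 and 0.308 CPM in the WT-Sham libraries (replicates 1 to 3) and at 0.833, 0.416 and 1.28 in miKO-Sham. After tFCI, Snap25 was at 0.718, 1.85 and 0.487 CPM for WT and at 1.45, 1.51 and 1.48 for miKO. The fitted Snap25 log2 fold change with tFCI was 0.99 (SE 0.75, edgeR adjusted p = 0.32) in WT and 0.79 (SE 0.70, edgeR adjusted p = 0.389) in miKO. The other 5 neuron genes, Syt1, Nefl, Nefm, Gad1 and Slc17a7, were not tested. With Mog and Olig2 they were at 0 in 30 of 84 gene by library values and reached 2.38 CPM at most (Nefl in miKO-tFCI replicate 1). Nefl and Nefm share 1108 exon bases on opposite strands, and reads there cannot be told apart.

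Genotype was compared within each surgery. In miKO-Sham vs. WT-Sham, 6 members were called higher (Rbfox3, Gfap, Aldoc, Cldn5, Esam and Pdgfrb), beside 8.58% of all genes tested, and 2 lower (Slc1a3 and Mag), beside 6.8%. The share called lower was near its background. The median over the 25 was 1.19, against 0.04 over all genes. Rbfox3 had the clearest difference, with 11.8 ± 2.9 CPM (SD, n = 3) in miKO-Sham and 1.22 ± 0.725 in WT-Sham. Its log2 fold change was 3.32 (SE 0.48, edgeR adjusted p = 0.000203), with 2.51 in batch 1 and 3.50 in batch 2, and it was called in all 22 alternatives in which it was tested. Other neuron markers did not share this call. Snap25 (log2 fold change 0.71, edgeR adjusted p = 0.584) and Tubb3 (1.37, edgeR adjusted p = 0.519) were not called. Of 12 wider neuron genes tested, 0 were called higher and 2 lower. That list summed to 13.5 to 19.1 CPM in miKO-Sham and 25.6 to 31.5 in WT-Sham. Slc1a3 was lower in miKO-Sham by a log2 fold change of -0.73 (SE 0.15, edgeR adjusted p = 0.00397), and Mag by -0.74 (SE 0.14, edgeR adjusted p = 0.00167). The Slc1a3 difference was -0.65 in batch 1 and -0.77 in batch 2, and that of Mag -0.80 in batch 1 and -0.71 in batch 2. For Gfap the log2 fold change was 2.34 (SE 0.71, edgeR adjusted p = 0.0321), for Aldoc 1.19 (SE 0.36, edgeR adjusted p = 0.0341) and for Pdgfrb 1.97 (SE 0.62, edgeR adjusted p = 0.0406). Leaving out 1 library, with the log2 fold change then in parentheses, Gfap was lost without WT-Sham replicate 1 (1.52), miKO-Sham replicate 2 (2.41) or miKO-Sham replicate 3 (1.45), Aldoc without WT-Sham replicate 1 (1.09), WT-Sham replicate 2 (1.08), miKO-Sham replicate 2 (1.23) or miKO-Sham replicate 3 (0.89) and Pdgfrb without WT-Sham replicate 1 (1.21), WT-Sham replicate 3 (2.28), miKO-Sham replicate 2 (1.63), miKO-Sham replicate 3 (2.04) or miKO-tFCI replicate 2 (1.97). With miKO-Sham replicate 2 counted in batch 1, a setting chosen after the data were seen, the same 3 were lost. Without replicate 2, 3 members were called higher and 3 lower, with Kdr among the lower. Cldn5 and Esam rested on 3 counts each in WT-Sham, with ratios of summed counts of 15.8 (95% interval 5.02 to 79.9, 39 against 3 counts) and 13 (95% interval 4.05 to 66.1, 32 against 3 counts). Cldn5 in miKO-Sham replicate 3 was 0.256 CPM, inside the WT-Sham range. Rgs5, at 0 in WT-Sham, was at least 3.33-fold higher in miKO-Sham by the floor and was not called (edgeR adjusted p = 0.0734). Of 5 red cell markers, 3 were called higher in miKO-Sham (2 without replicate 2), and their sum ran from 21.9 to 68.4 CPM in miKO-Sham and from 4.41 to 17.3 in WT-Sham. The choroid plexus and ependyma list ran from 439 to 1031 CPM in miKO-Sham and 185 to 308 in WT-Sham. Their part in the results was not tested.

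In miKO-tFCI vs. WT-tFCI, 6 members were called higher (Gfap, Aldoc, Gja1, Pdgfra, Esam and Pdgfrb), beside 4.08% of all genes tested, and 1 lower (Slc1a3), beside 4.71%. Here too the share called lower was near its background. The median was 1.05, against 0.04 over all genes, and 22 of the 25 fitted values were above 0, beside 8857 of 16451 over all genes. Snap25, Olig1 and Rgs5 were past the count minimum in 3 miKO-tFCI libraries and in 1 WT-tFCI library. Such members could be tested because they were higher in miKO-tFCI, so these counts describe the list and carry no support. Gfap was 142 ± 93.9 CPM (SD, n = 3) in miKO-tFCI and 46.3 ± 28.6 in WT-tFCI, and every miKO-tFCI library was above every WT-tFCI library. Its log2 fold change was 1.60 (SE 0.27, edgeR adjusted p = 0.0017), with 1.66 in batch 1 and 1.56 in batch 2. The log2 fold change was 1.54 (SE 0.34, edgeR adjusted p = 0.011) for Gja1, 1.32 (SE 0.30, edgeR adjusted p = 0.0135) for Aldoc and 1.56 (SE 0.44, edgeR adjusted p = 0.0361) for Pdgfra. By batch these were 1.25 in batch 1 and 1.74 in batch 2 for Gja1, 1.40 in batch 1 and 1.39 in batch 2 for Aldoc and 0.94 in batch 1 and 1.97 in batch 2 for Pdgfra. Pdgfrb differed by 1.53 (SE 0.43, edgeR adjusted p = 0.036) and did not overlap between the groups. Esam differed by 1.05 (SE 0.31, edgeR adjusted p = 0.0456) and was lost with the replicate number as a block (edgeR adjusted p = 0.0559). Cldn5, with 0.89 (SE 0.28, edgeR adjusted p = 0.06), was not called, and with the block it was called higher at a log2 fold change of 0.91 (edgeR adjusted p = 0.029). Slc1a3 went the other way, at -0.75 (SE 0.16, edgeR adjusted p = 0.00813), with -0.21 in batch 1 and -1.02 in batch 2. Mag passed the p threshold with a log2 fold change of -0.52 (SE 0.14, edgeR adjusted p = 0.0307) and missed the fold limit.

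These genotype calls after tFCI depended on the libraries and the fit. The 7 calls became 1 without the batch term (Slc1a3), 2 without WT-tFCI replicate 2 and 1 without WT-tFCI replicate 3. Without each of the 3 miKO-tFCI libraries in turn, 4 members were called. Without miKO-tFCI replicate 1, just 2 of these 4 were among the 7 (Gfap and Slc1a3), and Mag and Rgs5 were new. Fitting just the 6 libraries of these groups gave 16 calls, all 7 among them. Batch 2 alone gave 8, of which 5 were among the 7. Gfap was called in all 22 alternatives that tested it except the fit without the batch term. With the log2 fold change that remained in parentheses, Gja1 was lost without WT-tFCI replicate 2 (1.37), WT-tFCI replicate 3 (1.40) or miKO-tFCI replicate 1 (1.30), Aldoc without WT-tFCI replicate 3 (1.03) or miKO-tFCI replicate 1 (1.07), and Slc1a3 without WT-tFCI replicate 2 (-0.67) or WT-tFCI replicate 3 (-0.71). Pdgfra was lost without WT-tFCI replicate 2 (1.51), WT-tFCI replicate 3 (1.25), miKO-tFCI replicate 1 (1.61), miKO-tFCI replicate 2 (1.66) or miKO-tFCI replicate 3 (1.40), and DESeq2 did not call it (log2 fold change 1.55, DESeq2 adjusted p = 0.186). Pdgfrb was lost without WT-tFCI replicate 2 (1.23), WT-tFCI replicate 3 (1.32), miKO-tFCI replicate 1 (1.57), miKO-tFCI replicate 2 (1.53) or miKO-tFCI replicate 3 (1.51). Esam was lost without WT-Sham replicate 3 (1.05), WT-tFCI replicate 1 (1.19), WT-tFCI replicate 2 (0.91), WT-tFCI replicate 3 (1.13), miKO-tFCI replicate 1 (0.78), miKO-tFCI replicate 2 (1.06) or miKO-tFCI replicate 3 (1.18). Of monocyte and neutrophil markers tested, 2 of 7 and 4 of 6 were called higher in miKO-tFCI, with sums of 419.9 to 904 and 640.0 to 893 CPM there, against 357 to 637 and 145 to 195 in WT-tFCI. Of 6 fibroblast markers tested, 4 were called higher in miKO-tFCI, with a median log2 fold change of 1.27 and sums of 583 to 2062 CPM against 235 to 1049, and Pdgfra and Pdgfrb are made by fibroblasts too. The microglial sum, which includes Cx3cr1, was lower in all 3 miKO-tFCI libraries than in all 3 WT-tFCI libraries. Their part in the member results was not tested. By class, 3 of 8 astrocyte genes, 1 of 6 in the oligodendrocyte lineage, 1 of 6 endothelial genes and 1 of 2 mural genes were called higher. None of the 3 neuron genes tested was called by edgeR or by DESeq2, and none had an unadjusted p under 0.05. 

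The interaction of genotype and surgery asks whether the genotype difference changed with tFCI. By edgeR, 0 members were called higher, beside 1.25% of all genes, and 1 lower, Rbfox3, beside 2.57%. With all 12 libraries, DESeq2 also called 0 higher, and no member had an unadjusted p under 0.05 in that direction. Without miKO-Sham replicate 2, edgeR called 1 member higher, Kdr, and 0 lower. The Rbfox3 interaction was -2.64 (SE 0.68, edgeR adjusted p = 0.0433). It was called in 8 of the 20 alternatives that tested it and was lost without 9 of the 12 libraries in turn, at -2.91 to -2.22. Cldn5 had an interaction of -2.94 (SE 0.85, edgeR adjusted p = 0.0757) and Esam of -2.60 (SE 0.85, edgeR adjusted p = 0.116), both resting on the 3 counts of WT-Sham.

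The libraries of batch 1 held more RNA of most members after tFCI. Over the 25 tested members, the ratio of replicate 1 to the mean of replicates 2 and 3 had a median of 3.17 in WT-tFCI and 2.46 in miKO-tFCI. The same ratio over all genes had a median of 1.03 and 0.984, with 90th percentiles of 2.51 and 2.68. In WT-tFCI, 17 of the 25 members were above that percentile, and in miKO-tFCI 9 were. In Sham, where the 90th percentiles over all genes were 1.89 in WT and 1.48 in miKO, 7 of 23 members with a ratio were above it in WT-Sham and 6 of 24 in miKO-Sham. The Sham medians over these members were 1 for WT and 0.991 for miKO. The 5 endothelial genes other than Kdr were higher in replicate 1 in Sham too, with summed levels at 3.42 times the mean of the others in WT-Sham and 2.03 times in miKO-Sham. Neutrophil markers went the other way after tFCI, with ratios of 0.766 and 0.721. Sox9 had ratios of 5.38 and 4.65 in WT-tFCI and miKO-tFCI, Cdh5 of 3.7 and 4.22, Cldn5 of 4.57 and 3.61, and Gfap of 2.66 and 2.84. By contrast Mag had 0.992 and 1.23, Cnp 1.17 and 1.23, and Slc1a3 0.854 and 1.5. The myelin genes Mobp and Mag, and Rgs5, were close to even between batches in miKO-tFCI. Among the 12 libraries, miKO-tFCI replicate 1 was the highest for 7 of 8 astrocyte genes and for all 6 endothelial genes, but for 3 of 8 genes of the oligodendrocyte lineage and 2 of 8 neuron genes. The batch 1 libraries also had the most mitochondrial RNA of their tFCI group, 3.4% of counts in WT-tFCI and 4.67% in miKO-tFCI, against 1.36% to 2.16% in batch 2. Its part in the member results was not tested.

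**Figure D4:**
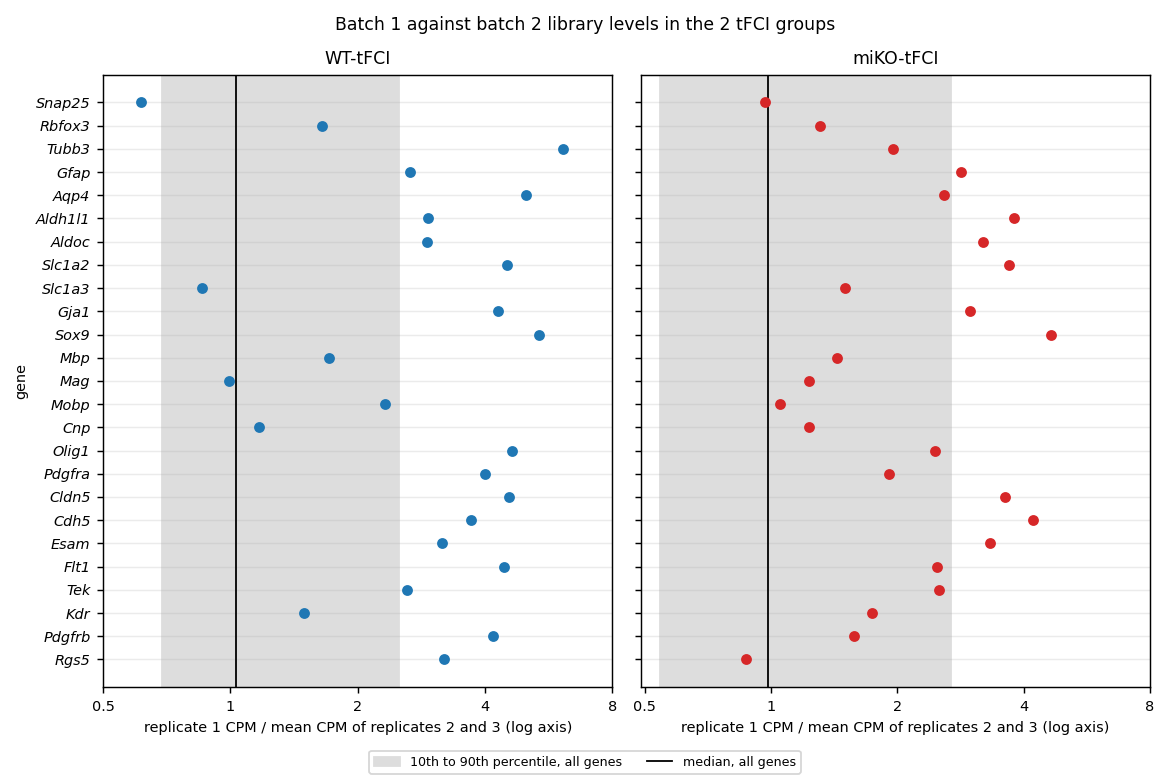
CPM of replicate 1 (batch 1) divided by the mean CPM of replicates 2 and 3 (batch 2) for the 25 members tested (log axis), in WT-tFCI and miKO-tFCI. The grey band spans the 10th to 90th percentile of all genes tested and the black line marks their median, and most astrocyte and endothelial genes lie beyond the band in WT-tFCI while Slc1a3, Mag, Cnp and Mbp lie inside it.

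Wider lists of markers of the same cells were read in the same way. Counts with tFCI, here and in the lists that follow, stand beside the shares over all genes tested. These were 20.9% higher and 11.7% lower in WT, and 21.9% higher and 13.9% lower in miKO. Of 15 further astrocyte genes, 11 were tested, 9 were called higher and 1 lower in WT-tFCI vs. WT-Sham, and 9 higher and 1 lower in miKO, with medians of 2.87 and 2.85. Glul, glutamine synthetase, measured 921, 499 and 546 CPM in WT-Sham and 369, 494 and 473 in miKO-tFCI, so it was already high in Sham. Clu, a secreted chaperone, measured 12.9, 21.6 and 13.8 CPM in WT-Sham, 317, 40.5 and 35.7 in WT-tFCI and 917, 124 and 116 in miKO-tFCI. Of 19 further genes of the oligodendrocyte lineage, 13 were tested and 8 and 10 were called higher with tFCI in WT and miKO, with medians of 2.28 and 2.60. Without miKO-Sham replicate 2, 16 were tested and 12 were called higher in miKO. Cspg4, or NG2, which precursors and pericytes carry, was higher in every WT-tFCI library than in every miKO-tFCI library. Its CPM reached 20.5, 30.4 and 24.7 for WT-tFCI, 3.1, 4.52 and 2.47 for miKO-tFCI, and 0 in all 6 Sham libraries.

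Of 16 further endothelial genes, 14 were tested, 10 were called higher and 1 lower with tFCI in WT, and 14 higher and 0 lower in miKO, with medians of 3.77 and 3.41. Itm2a, a membrane protein of brain endothelium, measured 1.2, 1.46 and 0.718 CPM in WT-Sham and 163, 40.1 and 46.1 in miKO-tFCI. Eng, the TGF-beta co-receptor endoglin, was already at 86.3, 72.9 and 76.6 CPM in WT-Sham and at 11.7, 15.8 and 18.4 in miKO-Sham. Of 10 further mural genes, 4 were tested and all 4 were called higher with tFCI in each genotype, with medians of 2.42 and 3.39. Acta2, smooth muscle actin, measured 2.52, 0.896 and 0.103 CPM in WT-Sham and 28.4, 3.9 and 9.52 in miKO-tFCI. Of 20 further neuron genes, 12 were tested, 1 was called higher in WT, and 6 were called higher and 1 lower in miKO, with medians of 0.84 and 1.96. Elavl4, a neuronal RNA-binding protein and the most abundant of them, measured 7.33, 13.6 and 9.75 CPM in WT-Sham and 2.06, 2.01 and 1.48 in miKO-tFCI. The wider neuron list summed to 25.6 to 31.5 CPM in WT-Sham and 20.8 to 41.9 in WT-tFCI. In miKO the sum was 13.5 to 19.1 CPM in Sham and 24.8 to 79.5 after tFCI, where the highest was replicate 1. Itm2a, Acta2 and Elavl4, like Glul above, are given for WT-Sham and miKO-tFCI, which differ in both genotype and surgery. As for the members, genes low in Sham were tested because they were higher elsewhere.

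By genotype in Sham, 3 of the 11 wider astrocyte genes, 1 of the 13 oligodendrocyte genes and 1 of the 14 endothelial genes were called higher in miKO-Sham, while 3 endothelial and 2 of 12 neuron genes were called lower. These stand beside 8.58% of all genes called higher and 6.8% lower, which the single oligodendrocyte and endothelial genes do not exceed. Without miKO-Sham replicate 2, 2 wider astrocyte genes and 1 wider neuron gene were called higher, and the oligodendrocyte and endothelial counts did not change. No wider mural gene was called in Sham by edgeR, with 0 at an unadjusted p under 0.05 and 0 by DESeq2. After tFCI, 3 of 11 astrocyte, 3 of 13 oligodendrocyte and 1 of 4 mural genes of the wider lists were called higher in miKO-tFCI. Those called lower were 1 of 13 oligodendrocyte, 1 of 14 endothelial and 1 of 12 neuron genes. Over all genes tested, 4.08% were called higher and 4.71% lower. The medians were 1.15, 1.16, 1.03, 1.24 and 0.41 for astrocytes, oligodendrocytes, endothelium, mural cells and neurons.

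RNA of cells outside these 5 classes moved in the same libraries. All 6 fibroblast markers tested were called higher with tFCI in both genotypes. Their 7 genes summed to 3.73, 3.02 and 4.72 CPM in WT-Sham, 10.1, 9.16 and 12.9 in miKO-Sham, 1049, 235 and 242 in WT-tFCI and 2062, 583 and 687 in miKO-tFCI, more than any of the member classes after tFCI. Dcn, the collagen-binding decorin, measured 376, 96.6 and 88 CPM in WT-tFCI and 893, 215 and 273 in miKO-tFCI, against 0.721, 1.01 and 0.923 in WT-Sham. Ependyma and choroid plexus genes differed widely between libraries of a group. Their 8 genes summed to 3833, 281 and 238 CPM in WT-tFCI and 9700, 601 and 598 in miKO-tFCI, and Ttr, the choroid plexus carrier of thyroid hormone, was most of it at 3557, 258 and 212 and 9024, 532 and 524 CPM. Replicate 1 held 14.8 and 16.2 times the mean of replicates 2 and 3 in WT-tFCI and miKO-tFCI, against 1.73 and 2.69 for the astrocyte sum. Of these 8 genes, 3 and 3 were called higher with tFCI in WT and miKO, and 6 in miKO without miKO-Sham replicate 2.

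Among blood-borne cells, 3 and 5 of 7 monocyte markers were called higher with tFCI in WT and miKO. Of 6 neutrophil markers tested, none was called in WT by edgeR and 0 had an unadjusted p under 0.05, and 3 were called higher in miKO. DESeq2 called 0 neutrophil markers higher and 0 lower in WT. WT-Sham replicate 1 carried a neutrophil sum of 788 CPM, against 45.8 and 70.6 in replicates 3 and 2. Of 4 lymphocyte markers tested, none was called with tFCI by edgeR in either genotype, and the number at an unadjusted p under 0.05 was 0 in WT and 0 in miKO. DESeq2 called 0 in WT and 0 in miKO. Of 5 red cell markers, none was called with tFCI in WT and 1 was called lower in miKO, a call lost without miKO-Sham replicate 2. In WT, 0 red cell markers had an unadjusted p under 0.05, and DESeq2 called 0. Of 15 microglial markers, 7 were called lower with tFCI in WT and 12 in miKO, with medians of -0.48 and -1.04. Of these markers, 5 were called lower in miKO-tFCI than in WT-tFCI. The list holds Cx3cr1, of which miKO mice have 1 allele replaced, and its part in these counts was not tested. The part of these shifts in the member results was not tested.

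Levels per length place the members on 1 scale. In RPKM, the CPM divided by exon length in kilobases (mean ± SD, n = 3), the order in WT-Sham was Cnp (32.2 ± 4.17), Slc1a3 (21.1 ± 0.571), Mag (13.7 ± 0.265) and Mbp (3.13 ± 0.21), and every other member was below 1 RPKM. These neighbours were apart by more than their SDs. In miKO-tFCI the order was Gfap (33.8 ± 22.3), Cldn5 (28.9 ± 23.4), Cnp (26.2 ± 3.19), Aldoc (10.6 ± 7.78) and Esam (9.93 ± 7.54). The first 3 of these did not differ beyond their spread, nor did Aldoc and Esam. WT-tFCI lay between, led by Cnp (28.7 ± 2.67), Cldn5 (16.8 ± 15.9), Slc1a3 (13 ± 1.21) and Gfap (11 ± 6.78), with Cldn5, Slc1a3 and Gfap inside each other's spread.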

How the data were processed

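RNA was measured in 12 libraries of sorted microglia made with SMART-Seq v4, a full-length kit that does not mark strand, and read as paired ends on a NovaSeq. The authors deposited whole-number counts per gene for each library, not normalized; the submitters' processing notes name FastQC 0.11.9, Trim Galore, HISAT2 2.2.1, SAMtools and HTSeq 1.99.2, and mm10 (GRCm38.p6). Since reads shared by overlapping genes may be lost or misplaced by such counting, overlaps of the members are named beside the genes. Those of genes in the other lists are not given. Gene identifiers were matched to GENCODE M21 names without their version, 55141 of 55401. The minimum count filter and library scaling change which low genes are tested.

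Counts were fitted in R 4.3.3 with edgeR 4.0.16 (quasi-likelihood test, TMM factors, filterByExpr, group and labelled batch as terms, all 12 libraries, 7 residual degrees of freedom), and p-values were adjusted by the Benjamini-Hochberg method over the 16451 genes tested. Each value per library is CPM scaled by TMM. Within-batch differences are differences of mean log2 CPM with a prior count of 2. RPKM used summed exon lengths. DESeq2 1.42.0 was an alternative, and the code was tested on simulated data with 200 genes changed. Intervals of count ratios are exact, at 95%, and cover counting error only. Replicates were labelled as separate samples, and each pools hemispheres.

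The members, marker lists and tests were chosen with earlier results of these data known. All members called in a comparison, and the most abundant of the others, were described in full, and in other lists the 3 genes with the highest mean level could be named. Samples of the same number deviated together in miKO-tFCI and WT-tFCI (correlations of deviations 0.666, 0.334 and 0.324, from the data and not the design), so the value with the number as a block is given there where it changed a call. Figures were drawn with matplotlib 3.10.9 in Python 3.11.15. Other settings are listed in the closing section. Columns of samples outside these labels were not found (0).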

Additional observations from a re-analysis of the deposited data

Results flagged for a closer look

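Rbfox3, the gene of the neuronal antigen NeuN, was flagged because its genotype difference was not the same in Sham and after tFCI by the interaction term of the fit. The difference between the genotype effects was -2.64 on the log2 scale (SE 0.68, edgeR adjusted p = 0.0433). In Sham the gene was higher in miKO by a log2 fold change of 3.32, in 3 of 3 libraries above every WT-Sham library, and after tFCI by 0.68, without a call. By genotype in Sham, Snap25 and Tubb3 were not called, and 0 of 12 wider neuron genes were called higher and 2 lower. The interaction was called in 8 of the 20 alternatives that tested it. It kept its direction in all 20, from -2.95 to -2.22, with edgeR or DESeq2 adjusted p from 0.00148 to 0.154. Leaving out 1 library, it was lost without WT-Sham replicate 2 (-2.91) or 3 (-2.22), miKO-Sham replicate 1 (-2.87) or 2 (-2.33), WT-tFCI replicate 1 (-2.52) or 2 (-2.27), or miKO-tFCI replicate 1 (-2.62), 2 (-2.60) or 3 (-2.67).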

How the results depend on the processing

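Of 25 members tested, 19 were called with tFCI in WT, 22 with tFCI in miKO, 8 by genotype in Sham, 7 by genotype after tFCI and 1 for the interaction, and no member called changed direction under any alternative. Requiring at least 10 counts in every library left 6 members to test and gave 4, 4, 3, 2 and 0 calls in that order, by its own construction. Without the batch term the counts were 4 in Sham, 1 after tFCI and 0 for the interaction. Fitting just the groups compared gave 5 in Sham and 16 after tFCI. In that Sham fit 13 members had enough counts to test, and the 3 calls lost, Gfap, Cldn5 and Esam, were not tested. No filter on low counts, with 32 members tested, gave 12 after tFCI and 3 for the interaction. DESeq2 gave 2 interaction calls. The cause of the other shifts was not tested. Leaving out 1 library at a time, the counts ran from 17 to 21 and 18 to 22 for tFCI in WT and miKO, 5 to 12 and 1 to 9 for genotype in Sham and after tFCI, and 0 to 2 for the interaction. The Sham count was 5 without WT-Sham replicate 1. Settings chosen after the data were seen gave 0 interaction calls with batch 2 alone, and with batch 2 and without miKO-Sham replicate 2 they gave 5 in Sham, 13 after tFCI and 0 for the interaction.

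With the replicate block, calls were 20 and 21 with tFCI in WT and miKO, 8 and 7 by genotype in Sham and after tFCI, and 2 for the interaction, Cldn5 being gained. Number 1 is also batch 1 in every group. In the 3 comparisons where not every pair of same-numbered samples correlated above 0.1, 4, 3 and 3 of 6 samples were closest to their own number (tFCI in WT, tFCI in miKO and genotype in Sham), and 3 of 6 were in miKO-tFCI vs. WT-tFCI. In those 3 the block lost Tubb3 in miKO (edgeR adjusted p = 0.0516) and gained Aldh1l1 in WT. Depth limits the 7 members not tested and those with 3 or fewer counts in WT-Sham, whose fold changes are bounds or ratios with wide intervals.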
